A study of Mus musculus with 6 samples.

Results

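The genes described are 8 of the MHC class II presentation pathway: the chain genes H2-Aa, H2-Ab1 and H2-Eb1, the invariant chain gene Cd74, the peptide editor genes H2-DMa and H2-DMb1, and the regulator genes Ciita and Rfx5. They were taken by symbol from a table of 55487 gene identifiers, and each symbol matched 1 identifier. RNA was taken from the terminal ileum of C57BL/6 mice on postnatal day 9, with 3 libraries in the NEC group and 3 in the control group. Necrotizing enterocolitis (NEC) is a disease of the immature gut in which the bowel wall is inflamed and dies. Pups of the model were gavaged with hyperosmolar formula, were put in 5% O2 for 10 min at 3 sessions daily for 4 days, and took lipopolysaccharide by mouth, 4 mg/kg each day, at days 6 and 7 of age. The control labels carry the same treatment text, so how the controls were fed and handled is not stated. Nothing in the labels says that the libraries came from separate animals or whether animals were pooled, so the spread behind each p-value is that of the libraries and may be technical.

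MHC class II molecules show peptides from endosomes to CD4 T cells. Dendritic cells, macrophages and B cells make them constantly, and intestinal epithelium can make them after interferon gamma. An alpha and a beta chain assemble on the invariant chain Cd74, proteases trim it in the endosome, and the H2-DM heterodimer exchanges its last fragment for a peptide. Transcription rests on a promoter complex of RFX, CREB and NF-Y factors, which binds the X and Y boxes upstream of each gene, and on the coactivator CIITA, which the complex recruits. C57BL/6 mice carry the b haplotype, in which the H2-Ea gene is not expressed, so H2-Eb1 RNA is made without its partner chain. The H2-Ea-ps gene was listed at 0 in all 6 libraries.

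RefSeq promoter windows (GRCm38.p6) were searched for 5 members, H2-Aa, H2-Eb1, H2-DMb1, H2-DMa and Rfx5. No window was at hand for H2-Ab1 and Ciita, and Cd74 was left out of this search. The last 140 bases before the annotated start site are printed for H2-Aa and H2-Eb1, an alpha and a beta chain gene with the largest changes among the chains, 5′ to 3′ on the strand of the gene. Capitals mark the Y box core (ATTGG, or CCAAT on the other strand) and the X box core, both searched on both strands.
H2-Aa, chr17:34287824-34287963, minus strand: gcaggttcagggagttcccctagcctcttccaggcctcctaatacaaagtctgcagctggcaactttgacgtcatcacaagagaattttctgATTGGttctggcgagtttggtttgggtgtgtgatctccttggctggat
H2-Eb1, chr17:34305727-34305866, plus strand: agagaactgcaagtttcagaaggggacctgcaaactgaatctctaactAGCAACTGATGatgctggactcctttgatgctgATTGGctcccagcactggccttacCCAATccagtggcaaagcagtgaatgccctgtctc

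The X box core began at -92 relative to the start site in H2-Eb1 and at -95 in H2-DMb1. The Y box core followed it after 22 bases in H2-Eb1 and after 23 in H2-DMb1, for which GENCODE sets the start of the gene upstream of the RefSeq one. In H2-Aa the Y box core stood at -48, and the X box core searched did not occur in the 250 bases before the start. Rfx5 held a pair of Y box cores on the other strand, at -113 and -54, and of the 2 windows of H2-DMa 1 held a Y box core, at -198. Among all 32851 windows, 33.8% held the Y box core in the 250 bases, 0.816% the X box core and 0.292% both. A match is a description of the sequence and does not show binding.

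Values are FPKM as the authors deposited them, that is, fragment numbers corrected for the length of the transcript and the depth of sequencing. The comparison asked whether the members differed between NEC and control ileum. It was made with limma on log2(FPKM + 1) for the 15806 genes whose mean over the libraries reached 1 FPKM, and a gene was called at a Benjamini-Hochberg adjusted p under 0.05 over all of them. Value steps correspond to 16.9 to 18.7 M fragments in NEC libraries and 15.2 to 16.2 M in control libraries. Genes at 1 FPKM or more numbered 13461 to 14882 in NEC and 16290 to 16702 in control. NEC 1 stood apart: the 7SL RNA gene Rn7s1 held 42.7% of its total FPKM, against 31.3% and 32.2% in NEC 2 and 3 and 27.3% to 31.4% in control. Xist was at 130 and 139 FPKM in NEC 2 and NEC 3 and at 0.177 in NEC 1, against 0.0840 to 0.221 in control, so NEC 1 shares the sex-linked pattern of the controls and NEC 2 and 3 do not. The tissue markers were of bowel epithelium, with the adhesion gene Epcam at 206 to 247 FPKM in NEC and 247 to 251 in control. Of 8 epithelial genes, Vil1 was called higher, at 274 to 288 FPKM in NEC and 156 to 175 in control (adjusted p = 0.00548, limma). Krt19 was called lower, at 37.1 to 67.6 FPKM in NEC and 117 to 143 in control (adjusted p = 0.00822, limma). The other 6, Epcam among them, did not pass. Of the ileal genes, Fabp6 was at 0.123, 0 and 10.4 FPKM in NEC 1, 2 and 3, against 1.20 to 2.45 in control, and Slc10a2 at 1.01 to 2.30 against 1.31 to 2.21, while Fgf15 and Hoxb7 were called lower in NEC.

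All 8 members were lower in each NEC library than in each control library. The groups were apart in this direction in 47.3% of the 15806 tested genes and in 36.3% of the 33583 genes above 0 in at least 1 library. Group means of the members in NEC were 44.0% to 62.5% of those in control. In bulk tissue, fewer cells that make a transcript and less transcript per cell cannot be told apart. The plot of the members by library shows every value.

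**Figure D1:**
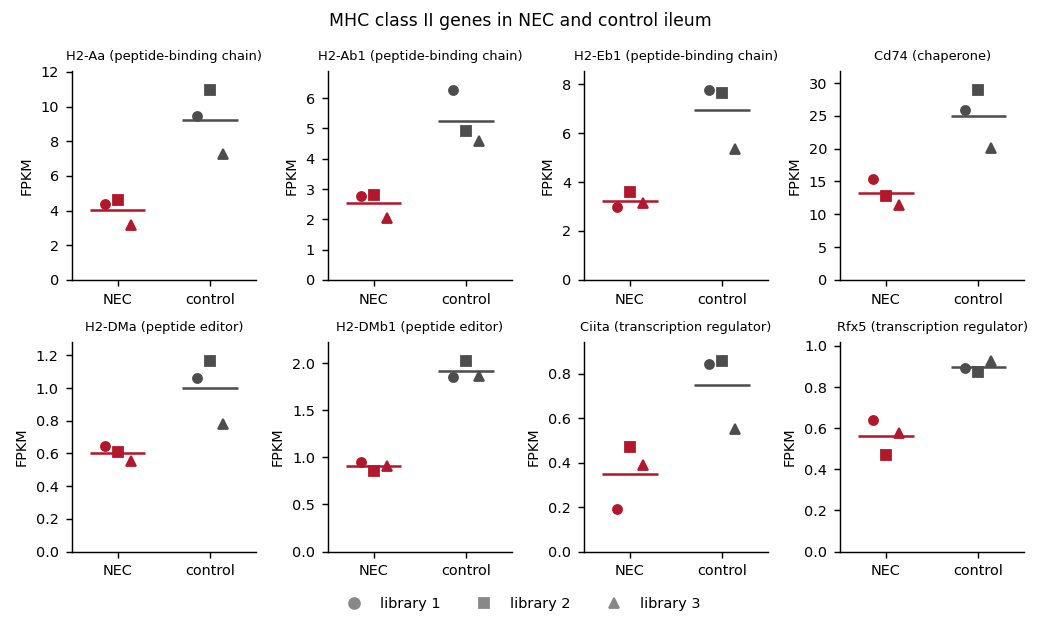
FPKM (vertical axes, from 0) of the 8 MHC class II genes in 3 NEC libraries (left, red) and 3 control libraries (right, grey), with marker shapes for the library number and lines for group means. No NEC value reaches a control value in any panel, and control 3 is the lowest control in 6 of the 8.

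H2-Aa, the alpha chain of the I-A molecule (ENSMUSG00000036594, mm10 chromosome 17, 34282744 to 34287823), was at 4.36, 4.63 and 3.19 FPKM in NEC 1, 2 and 3 and at 9.46, 11.0 and 7.24 FPKM in control 1, 2 and 3. The nearest values of the groups, NEC 2 and control 3, were 2.61 FPKM apart. Its mean was 4.06 ± 0.769 FPKM in NEC libraries, against 9.22 ± 1.88 FPKM in control libraries (SD, n = 3 each). H2-Aa fell by 1.01 log2 units (SE 0.18, adjusted p = 0.0106, limma).

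H2-Ab1, the beta chain that pairs with H2-Aa (ENSMUSG00000073421, chromosome 17, 34257689 to 34269419), was at 2.78, 2.79 and 2.04 FPKM in NEC libraries and at 6.28, 4.91 and 4.58 in control libraries. NEC 3 was the lowest NEC library for H2-Ab1, as for H2-Aa. The log2 change was -0.82 (SE 0.15, adjusted p = 0.0113, limma).

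H2-Eb1, the beta chain of the I-E molecule (ENSMUSG00000060586, chromosome 17, 34305867 to 34316674), was at 2.99, 3.61 and 3.13 FPKM in NEC libraries and at 7.78, 7.65 and 5.37 in control libraries. Its log2 change was -0.89 (SE 0.15, adjusted p = 0.00989, limma). The antisense gene Gm20513 overlaps the start of H2-Eb1 and was listed at 0 in every library, so its part in the H2-Eb1 value is not visible, and the strand setting is not given in the sources used here.

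Cd74, the invariant chain that blocks and escorts new class II molecules (ENSMUSG00000024610, chromosome 18, 60803848 to 60812652), was the most abundant member. It was at 15.4, 12.8 and 11.3 FPKM in NEC libraries and at 25.9, 29.0 and 20.1 in control libraries. The NEC mean was 13.2 ± 2.07 FPKM and the control mean 25.0 ± 4.51 (SD, n = 3 each), and Cd74 fell by 0.87 log2 units (SE 0.17, adjusted p = 0.0130, limma). This call was lost without control 1 (adjusted p = 0.0554) and without control 2 (0.0545, limma).

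The editors lay lower. H2-DMb1, the beta chain of H2-DM (ENSMUSG00000079547, chromosome 17, 34153072 to 34160230), was at 0.949, 0.859 and 0.910 FPKM in NEC libraries and at 1.85, 2.02 and 1.87 in control libraries, with the least spread of the called members. Its log2 change was -0.61 (SE 0.10, adjusted p = 0.00929, limma). On the log2(FPKM + 1) scale a change at this level is understated, and the NEC mean of H2-DMb1 was 47.4% of the control mean, near the 48.3% of H2-Ab1. H2-DMb2 is a close paralog of H2-DMb1, so the split of fragments between them is uncertain. It was at 0.144, 0.784 and 0.298 FPKM in NEC and at 1.13, 0.707 and 0.321 in control, and there the groups overlapped.

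H2-DMa, Ciita and Rfx5 had means under 1 FPKM and were tested only without the filter on low values. H2-DMa, the alpha chain of H2-DM (ENSMUSG00000037649, chromosome 17, 34119541 to 34139101), was at 0.647, 0.611 and 0.556 FPKM in NEC libraries and at 1.06, 1.16 and 0.782 in control libraries. Ciita (ENSMUSG00000022504, chromosome 16, 10480059 to 10528418) was at 0.190, 0.472 and 0.392 FPKM in NEC libraries and at 0.845, 0.857 and 0.553 in control libraries. Its NEC 1 value was the lowest of the 6, and control 3 was 0.0811 FPKM above NEC 2. Rfx5, the large subunit of the RFX factor (ENSMUSG00000005774, chromosome 3, 94954075 to 94961561), was at 0.638, 0.469 and 0.578 FPKM in NEC libraries and at 0.895, 0.875 and 0.925 in control libraries. None of the 3 passed: the log2 changes were -0.31, -0.38 and -0.28 for H2-DMa, Ciita and Rfx5, with adjusted p of 0.0932, 0.0810 and 0.0714 (limma without filter, where 15.3% of all genes were called lower). Scaled by the longest annotated transcript, their values stand for about 21 to 36 fragments a library for H2-DMa, 19 to 79 for Ciita and 38 to 67 for Rfx5, an upper estimate that leaves a wide counting error.

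All 5 members with a mean of at least 1 FPKM were called lower, where 30.6% of all tested genes were called lower and 7.69% higher. Their median log2 change was -0.87, beside a median of -0.26 over all tested genes. Scaling moved the calls. With TMM scaling, which brings the median of all genes to 0.00, H2-Aa, H2-Eb1 and H2-DMb1 were called, with 14.2% of all genes called lower, and H2-Ab1 at -0.55 and Cd74 at -0.54 did not pass (adjusted p = 0.0517 and 0.0910, limma). With quantile normalization H2-Aa, H2-Eb1 and Cd74 were called, with 15.1% of all genes called lower, and H2-Ab1 at -0.53 and H2-DMb1 at -0.23 did not pass (adjusted p = 0.0576 and 0.171, limma). Without NEC 1, or with libraries scaled without Rn7s1, all 5 were called. In every fit without NEC 1, here and below, Xist is high in the NEC libraries left and low in every control library. Group and this sex-linked pattern cannot be told apart in those fits. Each of the 5 stayed below 0 under all of the 15 other settings in which it was tested. For all 5, each NEC value was below each control value. Only TMM scaling, quantile normalization and scaling without Rn7s1 could therefore have changed the sign.

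**Figure D2:**
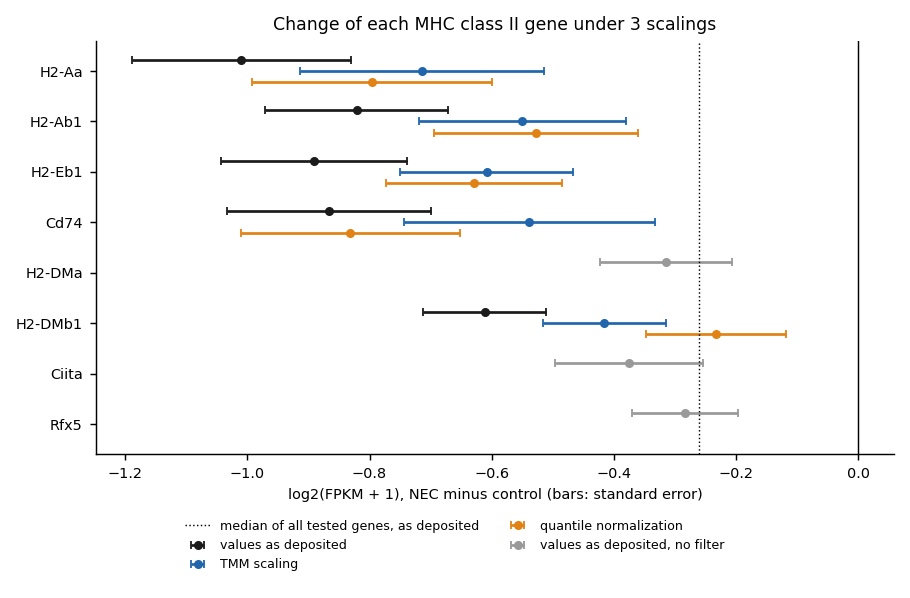
Log2 change of each member (horizontal axis, log2(FPKM + 1), NEC minus control) with its standard error, on the deposited values (black), with TMM scaling (blue) and with quantile normalization (orange), and without filter for the 3 members under 1 FPKM (grey). All points lie below 0, and the dotted line is the median of all tested genes at -0.26.

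The order of levels, per length, was the same in both groups: Cd74, H2-Aa, H2-Eb1, H2-Ab1, H2-DMb1, H2-DMa, Rfx5 and Ciita. Cd74 stood clear of the next gene in every library. H2-Aa and H2-Eb1 overlapped across libraries within each group, although H2-Aa was the higher of the pair in each of the 6 libraries. H2-DMa and Rfx5 overlapped within each group as well, and their order differed between libraries. The ratio of H2-Aa to its partner H2-Ab1 was 1.57, 1.66 and 1.56 in NEC libraries and 1.51, 2.23 and 1.58 in control libraries. The ratio of Cd74 to H2-Aa was 3.54, 2.77 and 3.56 in NEC libraries and 2.74, 2.64 and 2.77 in control libraries. Both ratios overlapped between the groups. The ratio of H2-DMb1 to H2-DMa did not overlap, at 1.41 to 1.64 in NEC and 1.73 to 2.39 in control, with few fragments behind H2-DMa.

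Of 8 genes of all leukocytes, 6 were tested, 2 were called lower and none higher, a share near that of all tested genes: Coro1a, an actin regulator, was at 1.59, 1.87 and 1.27 FPKM in NEC libraries and at 5.27, 3.90 and 3.44 in control libraries (adjusted p = 0.00903, limma), and Laptm5, a lysosomal protein of blood cells, changed by -0.52 (adjusted p = 0.0215, limma). The count was 1 without control 1 or control 2, with TMM scaling, with quantile normalization or with libraries scaled without Rn7s1, and 3 without control 3. Ptprc, which encodes CD45, was at 0.938, 1.07 and 0.642 FPKM in NEC libraries and at 2.32, 1.83 and 1.19 in control libraries, and did not pass (adjusted p = 0.0555, limma). Control 3 was the lowest control for 7 of the 8 leukocyte genes and for 6 of the 8 members. In the lists described below, it was the lowest for 11 of 12 B cell, 9 of 12 T cell and 7 of 14 macrophage markers. It was the lowest for 0 of 8 epithelial genes. The share among all genes was not computed, so nothing is drawn from these counts.

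The summed FPKM of H2-Aa, H2-Ab1, H2-Eb1 and Cd74 was 25.6, 23.9 and 19.7 in NEC libraries and 49.4, 52.5 and 37.3 in control libraries. The sum of the 8 leukocyte genes was 18.0, 21.5 and 18.8 FPKM in NEC libraries and 32.6, 33.7 and 26.5 in control libraries. The ratio of these sums was 1.42, 1.11 and 1.05 in NEC and 1.51, 1.56 and 1.41 in control, where NEC 1 lay just above control 3. Over the sum of 8 epithelial genes, which stood at 1358 to 1631 FPKM in NEC and 1273 to 1376 in control, the class II sum was 0.0145 to 0.0174 in NEC and 0.0271 to 0.0408 in control, without overlap. The class II sum was thus lower relative to epithelial RNA, and relative to leukocyte RNA the groups overlapped. Within the epithelial sum, Vil1 was called higher and Krt19 lower. The part of the number of leukocytes in the change of the members was not tested.

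**Figure D3:**
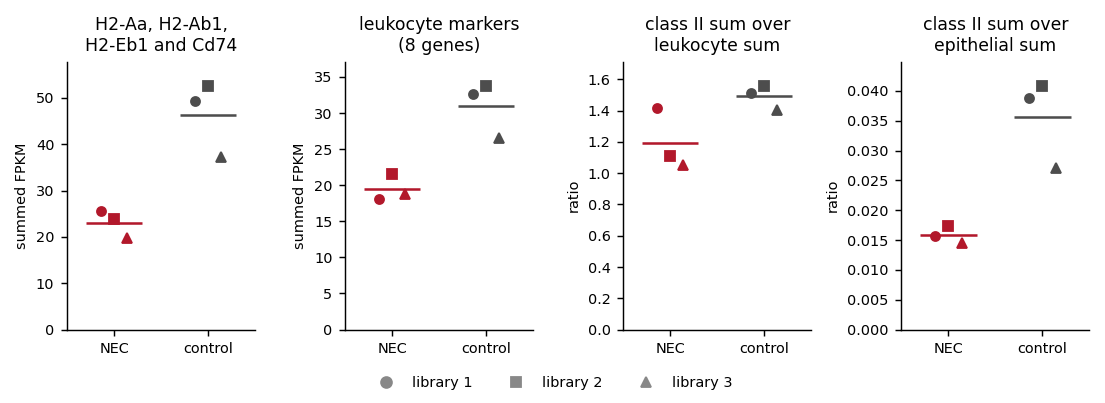
Summed FPKM of 4 class II genes, summed FPKM of 8 leukocyte genes, and the ratio of the class II sum to the leukocyte and to the epithelial sum (vertical axes, from 0) in 3 NEC libraries (left) and 3 control libraries (right), with lines for group means. The ratio to the leukocyte sum overlaps between the groups, and the ratio to the epithelial sum does not.

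Markers of the cells that carry class II were mostly at low levels. Of 12 dendritic cell markers 3 were tested. Fscn1, an actin bundler, was called lower at -1.10, Dpp4, which enterocytes also express, higher at 0.62, and Itgax at -0.40 did not pass (adjusted p = 0.00898, 0.00527 and 0.0752, limma). Clec9a and Xcr1, which define cross-presenting dendritic cells, stood at 0.0136 to 0.106 and 0 to 0.0247 FPKM in NEC, against 0.348 to 0.442 and 0.0970 to 0.207 in control. Batf3, a factor that the same cells need, was at 0.962, 0.328 and 0.369 FPKM in NEC libraries and at 0.321 to 0.494 in control libraries, so its groups overlapped. These 3 genes are named after their values were seen, and 8 of the 12 dendritic markers lay lower in every NEC library than in every control library. So did 36.3% of the 33583 genes above 0 in at least 1 library. The dendritic sum without Dpp4 was 4.76, 6.09 and 7.18 FPKM in NEC libraries and 13.1, 14.0 and 11.8 in control libraries, and the class II sum relative to it overlapped between the groups, at 2.74 to 5.37 in NEC and 3.17 to 3.77 in control. Leaving out Dpp4 was chosen after the data were seen. Over all 12 dendritic markers the class II sum was 0.440 to 0.615 in NEC and 1.02 to 1.41 in control, without overlap. Dpp4 alone was at 36.8 to 37.8 FPKM in NEC and 23.3 to 24.8 in control, within sums of 41.6 to 44.8 and 36.6 to 37.3.

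Of 14 macrophage markers 9 were tested, 3 were called lower and none higher: the F4/80 gene Adgre1 at -0.87 and the complement genes C1qb at -0.47 and C1qa at -0.48 (adjusted p = 0.0183, 0.0210 and 0.0220, limma). The share of 3 in 9 was near the 30.6% of all tested genes called lower. No macrophage marker was called without control 1 or control 2 or with quantile normalization, and 1 was called without NEC 2. With TMM scaling 2 macrophage markers were higher and 1 lower. The macrophage sum was 101 to 115 FPKM in NEC and 102 to 132 in control, and relative to it the class II sum was 0.182 to 0.252 in NEC and 0.325 to 0.486 in control, without overlap. The largest parts of this sum were Lyz2, Csf1r and Mertk, none of which passed. Their means were 39.1, 24.1 and 19.6 FPKM in NEC and 38.9, 20.9 and 18.3 in control. Of the 14 markers, 8 lay lower in every NEC library than in every control library, as did 36.3% of the 33583 genes above 0.

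Of 12 B cell markers 3 were tested and 1 was called lower, Ighm at -1.19 (adjusted p = 0.0187, limma), lost without control 1 or control 2, while Cd79b at -0.66 did not pass. Among all tested genes 30.6% were called lower. The B cell sum was 3.58 to 8.97 FPKM in NEC and 8.91 to 17.2 in control. The 12 T cell markers all lay under the filter, with sums of 0.915 to 1.89 FPKM in NEC and 2.80 to 5.06 in control. Of 8 markers of group 3 innate lymphoid cells, 2 were tested and neither passed, with Id2, a regulator of their development, at -1.60 (adjusted p = 0.0639, limma). The class II sum relative to the B cell, T cell and innate lymphoid sums overlapped between the groups.

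Of 10 processing and turnover genes of the pathway, 9 were tested, 6 were called lower and none higher. Among all tested genes 30.6% were called lower. Ctss, the cathepsin that trims the invariant chain, was at 83.8, 81.5 and 85.6 FPKM in NEC libraries and at 149, 160 and 152 in control libraries. Its groups were far apart, and it changed by -0.87 (SE 0.09, adjusted p = 0.00293, limma). Ctsh and Ctsl, further cysteine cathepsins, changed by -1.45 and -1.21, and Sppl2a, which cleaves the remaining membrane stub of Cd74, by -0.47 (adjusted p = 0.00527, 0.0136 and 0.0158, limma). Ctss and Ctsh, like Ctsl, are also genes of lysosomes in general. The cathepsin gene Ctsd, at -0.19, did not pass (adjusted p = 0.273, limma), and its groups overlapped. With TMM scaling 3 of the list were lower and 1 higher, and Sppl2a did not pass. Without control 1, 2 and 3 there were 3, 2 and 3 lower.

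Beside 30.6% of all tested genes, 5 of 12 other factors of the promoter complex and of Ciita control were called lower and none higher. They included Rfxap, a partner of Rfx5, at -0.59, the NF-Y subunits Nfyb at -0.48 and Nfya at -0.65, and Creb1 at -0.55 (adjusted p = 0.0137, 0.0256, 0.0285 and 0.0355, limma). Rfxank, the third RFX subunit, was at 2.39 to 3.01 FPKM in NEC and 2.17 to 2.98 in control. This list depended on the setting. Only Rfxap stayed called lower with TMM scaling, where 1 gene was higher, 2 were lower without NEC 2, 1 with the replicate block, 2 with libraries scaled without Rn7s1, and none without any 1 of the controls.

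Upstream of Ciita in inducible cells lies interferon gamma. Ifng itself was at 0, 0.0347 and 0.0338 FPKM in NEC 1, 2 and 3 and at 0 to 0.121 in control. Of 12 genes of this signal 9 were tested, 2 were called higher and none lower: Il18, a cytokine that drives interferon gamma, at 1.44 and Ifngr2, a receptor chain, at 0.28 (adjusted p = 0.00832 and 0.0464, limma). Among all tested genes 7.69% were called higher. The Ifngr2 call was lost without any 1 of the controls, without NEC 2 and under 5 of the other settings. Irf8 at -0.30 and Ifngr1 at 0.42 did not pass.

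NEC 1 departed from NEC 2 and 3 in Irf1 and Nlrc5, and the genes of this paragraph are named after their values were seen. Which signal lies behind this was not tested. Irf1, a factor that acts on the inducible promoter of Ciita, was at 18.6, 5.42 and 8.40 FPKM in NEC 1, 2 and 3 and at 7.96 to 8.61 in control. Nlrc5, the class I counterpart of Ciita, was at 7.13, 0.276 and 0.330 FPKM in NEC and at 0.309 to 0.454 in control. The ratio of Nlrc5 to Ciita was 37.4 in NEC 1, 0.586 in NEC 2 and 0.842 in NEC 3, against 0.438 to 0.560 in control. NEC against control, Irf1 at 0.19 and Nlrc5 at 0.80 did not pass (adjusted p = 0.702 and 0.379, limma), and without NEC 1 they stood at -0.25 and -0.08 (adjusted p = 0.261 and 0.631, limma). NEC 1 was thus the library with the highest Irf1 and Nlrc5 and the lowest Ciita, with 19 estimated fragments behind the last.

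**Figure D4:**
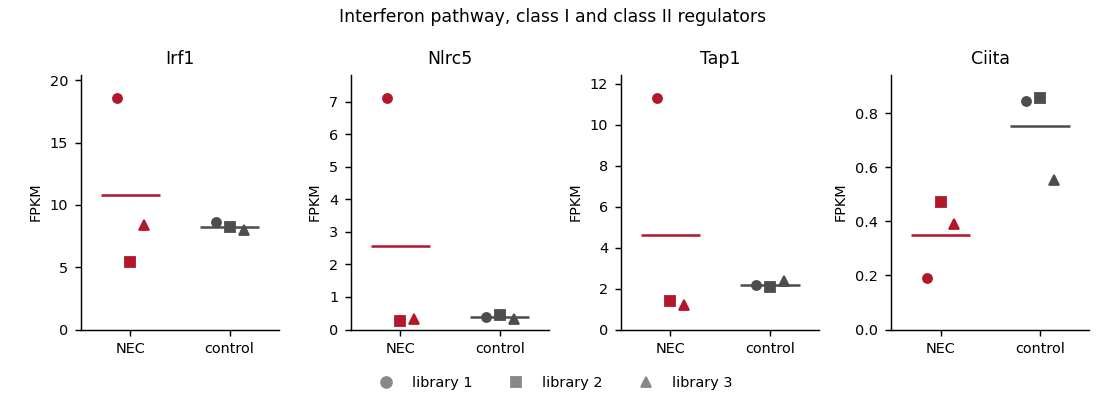
FPKM (vertical axes, from 0) of Irf1, Nlrc5, Tap1 and Ciita in 3 NEC libraries (left, red) and 3 control libraries (right, grey), with lines for group means. NEC 1 (circle) is highest for Irf1, Nlrc5 and Tap1 and lowest for Ciita.

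Genes of class I presentation sit inside the class II region of chromosome 17, between the editors and the chains, and followed the NEC 1 pattern. From H2-DMa to H2-Eb2 the annotation holds 12 protein-coding genes. Tap1, which pumps peptides into the endoplasmic reticulum for class I, was at 11.3, 1.38 and 1.18 FPKM in NEC libraries and at 2.06 to 2.35 in control libraries. Its log2 change of 0.32 did not pass (adjusted p = 0.703, limma), and without NEC 1 it stood at -0.49 and was called lower (adjusted p = 0.0137, limma). In NEC 1 the immunoproteasome and transporter genes Psmb9, Tap1, Psmb8 and Tap2 stood 1.04, 1.95, 0.91 and 1.18 above the control mean on the log2(FPKM + 1) scale. In the same library the flanking H2-DMb1, H2-Ab1, H2-Aa and H2-Eb1 stood at -0.58, -0.72, -0.91 and -0.98. In NEC 2 and 3 those 4 class II genes were at -0.61 to -1.27, and Tap1 at -0.42 and -0.55.

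**Figure D5:**
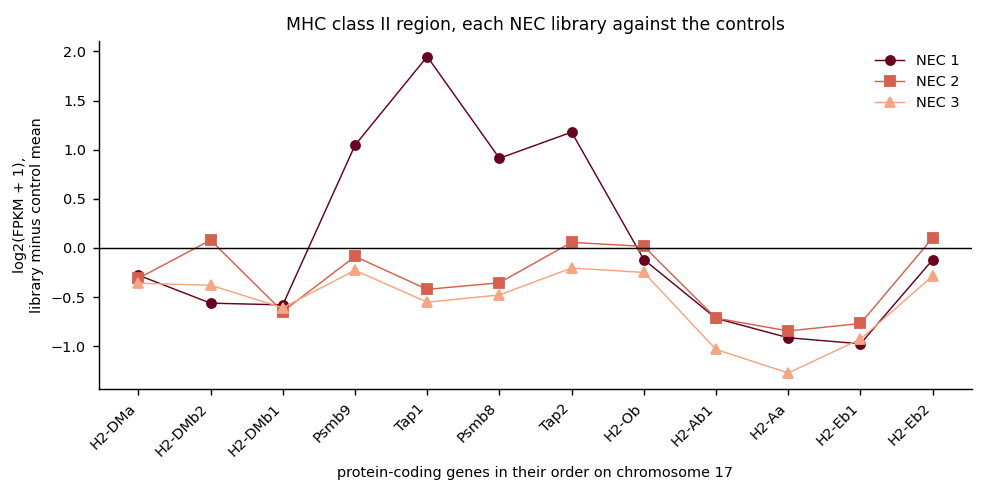
Difference of each NEC library from the control mean (vertical axis, log2(FPKM + 1)) for 12 protein-coding genes in their order on chromosome 17. In NEC 1 the class I processing genes Psmb9 to Tap2 stand at 0.91 to 1.95, and the 5 class II members (H2-DMa, H2-DMb1, H2-Ab1, H2-Aa and H2-Eb1) lie below 0 in all 3 NEC libraries. The other class II genes shown, H2-DMb2, H2-Ob and H2-Eb2, stand at 0.079, 0.015 and 0.10 in NEC 2. They lie below 0 in NEC 1 and NEC 3.

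Over the class I list of 16 genes, 15 were tested, 1 was called lower and none higher, beside 30.6% of all tested genes lower. The lower gene was Erap1, a peptide-trimming enzyme, at -0.32 (adjusted p = 0.0303, limma), which stood at 0.00097 with TMM scaling. NEC 1 was the highest of the 6 libraries for 12 of the 16 genes. Without NEC 1, 6 were called lower, and without NEC 2 or any 1 of the controls none was. In the fit without NEC 1, 5242 of the 15806 tested genes were called lower. The class I sum was 836, 639 and 638 FPKM in NEC libraries and 658, 717 and 700 in control libraries, and the class II sum relative to it was 0.0306 to 0.0373 in NEC and 0.0533 to 0.0751 in control.

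Among ligands of costimulation, 2 of 9 genes were tested. Icosl, the ligand of ICOS on T cells, was called higher, at 8.43, 4.97 and 4.05 FPKM in NEC libraries against 2.39, 2.45 and 2.20 in control libraries (adjusted p = 0.0203, limma), a call lost without any 1 of the controls. Cd274, which encodes PD-L1, was at 13.3, 0.562 and 0.858 FPKM in NEC and 1.38 to 1.52 in control, and did not pass (adjusted p = 0.636, limma). Without NEC 1 it stood at -0.52 and was called lower (adjusted p = 0.0199, limma). Cd80, Cd86 and Cd40 lay under the filter.

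Likeness to the mean profile of H2-Aa, H2-Ab1, H2-Eb1 and Cd74 was measured as the root mean square distance over the 6 libraries, after centring log2(FPKM + 1) values, among the 5839 protein-coding genes whose mean reached 5 FPKM. Among the 8 nearest were Tubb2b at 0.111 and Ptbp2, Cirbp, Sept10, Cd93, B4galnt2 and Ctss at 0.150 to 0.164. Tubb2b encodes a beta tubulin, Ptbp2 a splicing regulator of neurons, Cirbp a cold-inducible RNA-binding protein, and Ctss the cathepsin described above. The members of the profile lay at 0.0884 to 0.111 from it. Ranking uses the group difference, so genes that fell by about as much come near, and 30 genes lay within 0.2.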

How the data were processed

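The deposited table holds 1 value per gene and library without a named unit. Per the submitters' processing notes, the authors used HISAT2, SAMtools 1.3.1 and Cuffdiff with mm10, so values were read as FPKM. The column names start with N for 1 group, taken as NEC, and library numbers follow the columns. Of values below 100 fragments, 99.1% to 99.2% per library were whole within 0.01 for single-transcript genes, which gave the depth. Symbols, coordinates and transcript lengths came from GENCODE M21 on mm10, which matched 55227 of 55487 identifiers. Values as log2(FPKM + 1) were tested in R 4.3.3 by limma 3.58.1, its prior variance following the mean level, group as the only term, and Benjamini-Hochberg adjustment. An exact permutation test of 3 against 3 libraries cannot go below p = 0.1 and was not used. TMM factors came from genes past the filter, unweighted, with trims of 30% on log ratios and 5% on levels. The script was tested on simulated data. Figures used matplotlib 3.10.9. Members and lists were chosen with earlier results of these data known. Of each list, up to 4 genes with the smallest p were named, and of all genes the 8 of most similar profile; a few genes that these rules chose are not reported here.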

Additional observations from a re-analysis of the deposited data

How the results depend on the processing

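The MHC class II genes called lower numbered 5 of 5, and 3 with TMM scaling, 3 with quantile normalization and 3 at a mean of at least 5 FPKM, where 3 members were tested. Leaving out 1 library gave 4 to 5. Over all tested genes, 1215 were higher and 4829 lower. With TMM scaling these counts were 2639 and 2252, with quantile normalization 2202 and 2387, with libraries scaled without Rn7s1, chosen after seeing the data, 640 and 3186, and 1746 were lower at a mean of at least 5 FPKM. Leaving out 1 library gave 481 to 1584 higher and 1004 to 5302 lower, with the lowest counts without control 2 (481 and 1004), control 1 (508 and 1104) and control 3 (668 and 2061), and 799 and 2924 without NEC 2. Fewer genes or libraries were used in some of these settings, and without NEC 1 and NEC 3 the lower counts were 5242 and 5302. The median within-group SD of log2(FPKM + 1) was 0.211 in NEC and 0.0936 in control. The cause of these differences in counts was not tested. The replicate block gave 856 higher and 3230 lower and kept 5 members called. Same-numbered libraries did not deviate together (correlations of -0.0514, -0.00737 and -0.0743). With 3 libraries a group this cannot exclude a pairing, and the labels state none. Of the values of single members under other settings, 67 kept their side of the threshold and 6 lost it. Of those of single list genes 527 kept direction and side, 78 lost the call, 19 gained one and 12 changed sign. With TMM scaling the sign changed for Erap1 at 0.00097, which had been called, and for Pdia3 at 0.059, Cdx2 at 0.12 and Slc10a2 at 0.080, and Slc10a2 was at 0.24 with quantile normalization and Osr2 at -0.0013 with libraries scaled without Rn7s1. Leaving out 1 library gave -0.52 to 1.08 for Cd274, -0.49 to 0.76 for Tap1, -0.25 to 0.55 for Irf1 and -0.079 to 1.26 for Nlrc5, each lowest without NEC 1, and -0.32 to 0.039 for Slc10a2 and -0.044 to 0.13 for Osr2. Depth limits H2-DMa, Ciita and Rfx5, which rest on few fragments.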
